A study of Sus scrofa with 2 samples.

Results

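Principal cells of the collecting duct were examined in single-nucleus RNA sequencing of pig kidney cortex. A barcode with 500 to 6000 detected genes was a member when AQP2, SCNN1G and FXYD4 together held at least 8 of every 10000 UMIs of that barcode (a UMI is a counted RNA molecule), with SLC8A1 under 50, LRP2 plus CUBN under 30, SLC12A1 under 20 and SLC26A7, ATP6V0D2 and SLC4A1 together under 8. This rule gave 753 of 12955 nuclei, 457 of 7035 in the unperfused library and 296 of 5920 in the perfused library. The rule used measured values of these 10 genes, so their levels among the members are a description only, and every other gene of the members describes a set chosen by expression.

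The kidneys came from a slaughterhouse, were flushed with heparinised buffer and were kept cold before use. Unperfused cortex was collected before machine perfusion, and perfused cortex after 120 min at 100 mmHg and 37 °C with a cell-free salt solution, a setting that raises glomerular pressure. The question was which genes such perfusion changes. There was 1 library per condition, and the sources used here do not say whether both came from 1 animal, or give the animals' age, breed or sex, so perfusion, animal and library cannot be told apart.

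Principal cells line the collecting duct and the late connecting tubule and set the final composition of urine. Vasopressin binds its receptor AVPR2 on their basal side, cyclic AMP rises, and the water channel AQP2 moves into the apical membrane, while AQP3 and AQP4 let the water leave on the other side. Aldosterone, through the mineralocorticoid receptor NR3C2, raises the activity of the epithelial sodium channel, whose subunits are SCNN1A, SCNN1B and SCNN1G, and sodium entry drives potassium secretion through KCNJ1 (ROMK). Intercalated cells, which move acid and base, lie between them, and connecting tubule cells, which carry the sodium-calcium exchanger SLC8A1, lie upstream.

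Unperfused members held 1824203 UMIs and perfused members 1542837, of 34415254 and 35525592 UMIs in all barcodes. Their median was 3677 UMIs and 1997 genes per nucleus in the unperfused library and 5099 UMIs and 2390.5 genes in the perfused library, so the perfused members were read more deeply. The entry value just inside the rule was 8.04 (unperfused) and 8.05 (perfused), and the nearest values just outside were 8.0 and 7.92 per 10000. The entry threshold was reached by 584 unperfused and 379 perfused nuclei, of which the bounds on other genes removed 127 and 83, mostly through SLC8A1 (73 and 45). Of the 14 barcode sequences present in both libraries, 0 were members. Levels below are the members' summed UMIs per 1000000 of their summed UMIs (CPM). Intervals are 95% and exact (Poisson for a level, binomial for a ratio, Clopper-Pearson for a share), and they cover counting error only. Introns were counted and no gene length was used, so levels are compared between libraries or classes and not between genes.

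The 3 markers that the rule did not use were high in the members of both libraries. KIF26B, a kinesin family member that acts in kidney development, stood at 1197 CPM in unperfused and 2996 CPM in perfused members, against 31.6 and 56.9 CPM in all other nuclei. UNC5D, a netrin receptor, stood at 403 and 1196 CPM, against 24.5 and 28.3 CPM in all other nuclei. GATA3, a transcription factor of the collecting duct lineage, stood at 189 and 211 CPM in the members. It stood at 85.7 and 104 CPM in connecting nuclei and at 93.5 and 112 CPM in intercalated nuclei. Connecting nuclei had SLC8A1 at 50 or more per 10000, and intercalated nuclei SLC26A7, ATP6V0D2 and SLC4A1 together at 8 or more. Both classes also had upper bounds on genes of other segments, which for connecting nuclei included SLC12A3. KIF26B and UNC5D were thus higher in the members than in every other class of the plot of marker levels, whereas GATA3 was shared, at a lower level, with both neighbouring classes. Of the rule genes, AQP2 was at 641 and 701 CPM, SCNN1G at 1100 and 1239 CPM and FXYD4, a small regulator of the sodium pump, at 414 and 631 CPM.

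**Figure D1:**
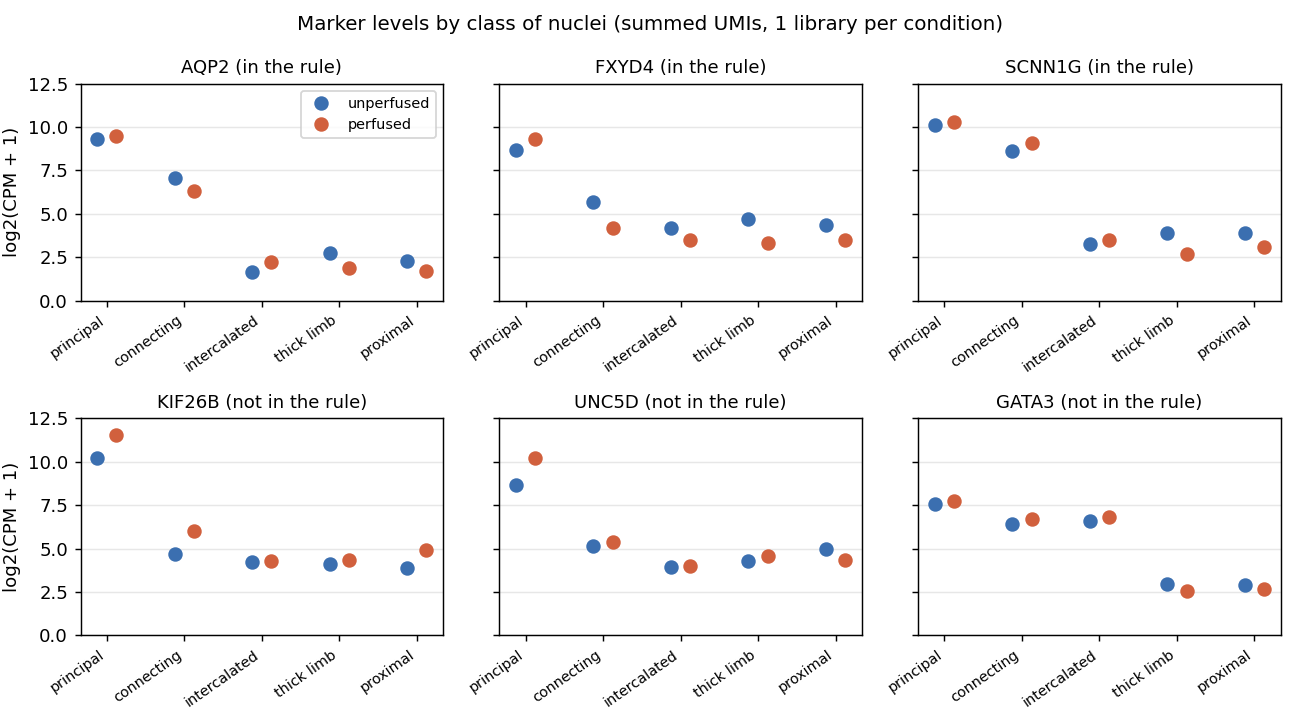
Level of the 6 markers, as log2(CPM + 1), in principal, connecting, intercalated, thick limb and proximal nuclei, 1 point per library (blue, unperfused; orange, perfused). KIF26B and UNC5D, which the rule did not use, are highest in principal nuclei of both libraries, and GATA3 is also present in connecting and intercalated nuclei.

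Not every member had the same entry genes. All 3 had a UMI in 166 unperfused members (36.3%) and 131 perfused members (44.3%). In 32 unperfused members (7.0%) and 43 perfused members (14.5%) FXYD4 was the only entry gene, and these were shallow, with medians of 1068.5 and 1071 UMIs. Their principal cell genes did not move together. SCNN1B was at 23.2 and 17.5 CPM, against 528 and 591 CPM in the remaining members. NR3C2 was at 417 and 263 CPM in them, against 2233 and 2725 CPM. GATA3 held 6 and 2 UMIs there, or 139 CPM (51 to 303) and 35.1 CPM (4.25 to 127), against 190 and 217 CPM. KIF26B, in contrast, was at 278 CPM (144 to 486) and 1385 CPM (1097 to 1726), under the 1220 and 3058 CPM of the remaining members but above the 31.6 and 56.9 CPM of all other nuclei. UNC5D held 3 and 32 UMIs, or 69.5 CPM (14.3 to 203) and 561 CPM (384 to 792). In the perfused library the same 43 nuclei held PTPRC, a marker of immune cells, at 544 CPM against 39.7 CPM in the remaining members, DCN, a stromal proteoglycan, at 438 against 21.5 CPM, and the mitochondrially encoded COX3 at 6575 against 392 CPM. These nuclei thus go against the name principal cell in SCNN1B, NR3C2 and, in the perfused library, GATA3, and carry its markers KIF26B and, in the perfused library, UNC5D. Several list results below are also given without them.

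**Figure D2:**
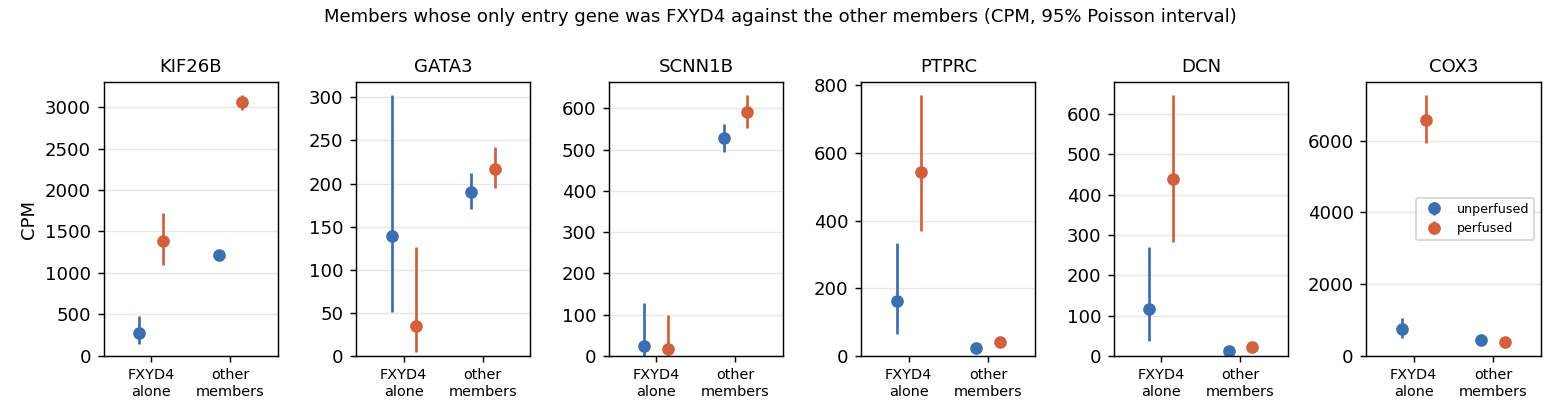
Level in CPM, with 95% Poisson intervals, of 6 genes in members whose only entry gene was FXYD4 (32 unperfused, blue; 43 perfused, orange) and in the other members (425 and 253). SCNN1B is near 20 CPM in the former and above 500 CPM in the latter, and PTPRC, DCN and COX3 are higher in the former, most in the perfused library.

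The genes with the largest excess over all other nuclei, taken as the lower of both libraries' log2 folds with 1 CPM added, were led by AQP2, KIF26B, ACOXL, SCNN1G, SCNN1B and ELF5. ACOXL, an acyl-CoA oxidase-like gene, was at 960 and 1074 CPM in the members and at 34.7 and 32.0 CPM elsewhere. ELF5, an epithelial ETS transcription factor, was at 49.3 and 67.4 CPM against 2.05 and 2.25 CPM. CHST9, a sulfotransferase, was at 544 and 926 CPM against 32.3 and 33.3 CPM. The remaining genes of the leading 15 were SPATA16, UNC5D, FXYD4, ATP10B, MARCHF11, PTGFR (the prostaglandin F receptor), L1CAM (an adhesion molecule) and CLIP4, with log2 folds of 3.73 to 4.01 in the unperfused and 4.06 to 5.35 in the perfused library. AQP2, SCNN1G and FXYD4 are in this list because the rule used them.

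Against connecting nuclei, the members stood apart in both directions. KIF26B was higher by log2 folds of 5.57 (unperfused) and 5.54 (perfused), and CHST9 by 4.43 and 4.14. LGALS3, a galectin, was at 191 and 269 CPM in the members and 14.6 and 5.39 CPM in connecting nuclei, and LEPR, the leptin receptor, at 37.8 and 49.9 against 2.43 and 2.16 CPM. Lower in the members were CACNB2, a calcium channel subunit (28.5 and 13 against 1133 and 1289 CPM), RCAN2, a calcineurin regulator (26.9 and 58.3 against 514 and 1084 CPM), and SLC12A3, the thiazide-sensitive transporter (10.4 and 14.3 against 244 and 155 CPM). SLC8A1 was lower as the rule required. The SLC12A3 contrast is against a class with an upper bound on SLC12A3. Against intercalated nuclei, HES1, a Notch target, was at 283 and 231 CPM in the members and 7.93 and 5.52 CPM there, while KCNMA1, the large-conductance potassium channel, was at 7.13 and 3.24 CPM against 1220 and 1456 CPM. The proton pump subunit ATP6V1C2, which the rule did not use, was at 6.03 and 18.8 CPM in the members and 1553 and 1956 CPM in intercalated nuclei, and in the perfused members 15 of its 29 UMIs came from 1 nucleus.

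KIF26B split the members. It had no UMI in 235 of 457 unperfused members (51.4%) and 112 of 296 perfused members (37.8%), and it stood at 40 or more per 10000 UMIs in 39 (8.53%) and 87 (29.4%). The nuclei between were spread over the range: 42 and 21 were above 0 and under 5, 25 and 15 from 5 to under 10, 61 and 24 from 10 to under 20, and 55 and 37 from 20 to under 40. Members at 5 or more made up 39.4% of the unperfused set (34.9 to 44.0) and 55.1% of the perfused set (49.2 to 60.8), against 0.504% and 1.07% of proximal nuclei. Thinned to 1000 UMIs per nucleus, which left out 18 and 22 shallower members, 36.9% of unperfused and 54.7% of perfused members kept a KIF26B UMI, against 48.6% and 62.2% before thinning and 1.16% and 1.47% of thinned proximal nuclei. A threshold of 5, chosen after these values were seen, marks a range and not a cell type.

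**Figure D3:**
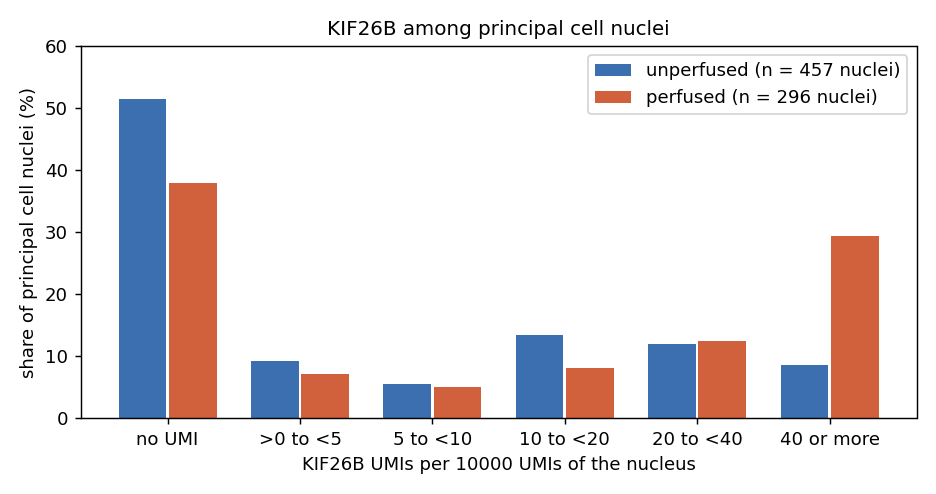
Share of principal cell nuclei (percent) by KIF26B UMIs per 10000 UMIs of the nucleus, in 457 unperfused (blue) and 296 perfused (orange) nuclei. Most nuclei have no UMI or at least 10 per 10000, and the class of 40 or more holds 8.53% of unperfused and 29.4% of perfused nuclei.

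Members with and without KIF26B differed in other genes of the distal nephron, several of them alike in both libraries. With KIF26B at 5 or more, AQP3, the basolateral water channel, was at 166 CPM (unperfused) and 159 CPM (perfused), and with KIF26B under 5 it was at 24.0 and 4.87 CPM, the latter from 3 UMIs. AQP2 was at 925 and 920 CPM in the former and 427 and 370 CPM in the latter. GATA3 followed the same order, with 258 and 283 against 137 and 102 CPM. Genes of the connecting tubule ran the other way. CALB1, a calcium-binding protein, was at 21.7 and 6.47 CPM with KIF26B and at 90.3 and 39.0 CPM without it, and KLK1, tissue kallikrein, at 25.5 and 9.71 against 161 and 60.1 CPM. SLC8A1, which the rule bounds, was at 217 and 256 against 1198 and 1319 CPM. Connecting nuclei themselves held CALB1 at 560 and 334 CPM and KLK1 at 310 and 117 CPM. The sodium channel gene SCNN1B was at 531 and 591 CPM with KIF26B and at 504 and 538 CPM without it. SCNN1G, at 1001 and 1194 against 1175 and 1306 CPM, is an entry gene, and the rule bears on its level in both ranges, as it does for AQP2. KIF26B also differed between the libraries, so nuclei can fall in different ranges in each, and the ranges do not compare like nuclei. Values within each range are given below as a description only.

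Principal cell nuclei were 6.50% of unperfused nuclei (5.93 to 7.10) and 5.0% of perfused nuclei (4.46 to 5.59). Without the members that had FXYD4 alone, the shares were 6.04% (5.50 to 6.62) and 4.27% (3.77 to 4.82). With every barcode thinned to 1500 UMIs and the rule applied again, they were 5.34% (4.80 to 5.92) and 4.28% (3.75 to 4.87), intervals that overlap. Shares of nuclei also depend on which nuclei survive isolation, and with 1 library per condition no test of this difference exists.

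Between conditions, 9808 genes had at least 20 UMIs in the richer library. A gene was called when it differed at least 2-fold with an interval that left out 0 on the log2 scale. In the perfused library 252 genes were called higher (2.57%) and 557 lower (5.68%), 8.25% in all, and the median log2 ratio of perfused over unperfused was -0.08. Without the members that had FXYD4 alone, 236 were called higher and 601 lower of 9630. With members thinned to 1000 UMIs, 206 were called higher and 228 lower of 4667. Thinning evens out depth per nucleus, but not the summed UMIs, since it leaves 439 unperfused and 274 perfused members. These calls rest on counting error in 1 library per condition, with no check by replicates. Gene lists below are described by how many of their measured members were called and by their median log2 ratio, beside these background values.

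Markers of other cells moved as well. Of 8 stromal markers, all with enough UMIs, 5 were called higher and 1 lower, and their sum went from 104 to 210 CPM. Among them ACTA2, smooth muscle actin, was at 24.7 and 71.3 CPM. Of 8 immune markers, 4 had enough UMIs and 3 of them (SKAP1, PTPRC and CD163) were called higher, the sum going from 321 to 544 CPM. Among them CD74 was at 177 and 228 CPM, but at 165 and 152 CPM without the members that had FXYD4 alone. The 8 endothelial markers summed to 559 and 387 CPM, with 2 called lower (TEK and CDH5), and the 10 proximal tubule markers to 704 and 562 CPM. No marker of these 4 lists was at 0 in either library. Of 10 intercalated cell markers, 6 had enough UMIs and 3 of them were called higher, while the sum went from 492 to 443 CPM. Of 6 connecting tubule markers, 3 had enough UMIs and 2 of them were called lower, the sum going from 948 to 736 CPM. The rule itself bounds genes of both these cell types. With the entry threshold at 16, PTPRC had a log2 ratio of -1.36 in place of 1.21, and DCN of -1.02 in place of 1.49, and without the members that had FXYD4 alone they were at 0.86 and 1.01. Their part in the values of other genes was not tested.

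The water pathway as a whole stayed near the background. Of 25 measured genes, 0 were called higher and 2 lower, with a median log2 ratio of 0.06. The called genes were AVPR2, the vasopressin receptor, which went from 38 to 16 UMIs (20.8 to 10.4 CPM, log2 ratio -1.01, -1.95 to -0.13), and RAB11A, a GTPase of the recycling endosomes that carry AQP2, which went from 49 to 18 UMIs (-1.20, -2.07 to -0.40). AQP2 itself changed by 0.13 (0.01 to 0.25) and AQP3, with 155 and 150 UMIs, by 0.19 (-0.14 to 0.53). AQP4 had 0 and 2 UMIs, at or under the limit of 3 counts that an absence allows, so no ratio is given. ADCY6, an adenylyl cyclase that makes cyclic AMP, was at 119 and 160 CPM (0.43, 0.16 to 0.70), and MYO5B, a motor of AQP2 vesicles, at 241 and 339 CPM (0.49, 0.31 to 0.68), both short of 2-fold. AQP2 is an entry gene, so its level among members is partly set by the rule. Both called genes had few UMIs, and without the members that had FXYD4 alone AVPR2 was at -0.99 (-1.93 to -0.11), short of a call.

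For sodium, 0 of 16 measured genes were called in either direction (median -0.03). SCNN1A and SCNN1B had log2 ratios of -0.02 (-0.31 to 0.27) and 0.14 (0.01 to 0.28), and SCNN1G, which the rule used, of 0.17 (0.08 to 0.26). FXYD4, also on this list, was used by the rule as well. The lowest ratio belonged to WNK1, a kinase that regulates ion transport, at 576 and 359 CPM (-0.68, -0.83 to -0.53). Within the KIF26B ranges WNK1 was at -0.20 (-0.52 to 0.12) with KIF26B and -0.44 (-0.61 to -0.27) without it. Among 11 steroid receptor and target genes 0 were called (median 0.27), and without the members that had FXYD4 alone 0 of 10 (median 0.06). NR3C2 was at 2190 and 2634 CPM (0.27, 0.20 to 0.33), and HSD11B2, the enzyme that shields it from cortisol, at 136 and 92.7 CPM (-0.55, -0.86 to -0.25).

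Potassium channels had a median of -0.40 over 9 measured genes, of which 2 were called lower (-0.28 and 2 of 8 without the members that had FXYD4 alone). The median was -0.21 with 1 of 7 called lower without doublets, -0.51 with 0 of 5 called in nuclei with KIF26B at 5 or more, and -0.08 with 1 of 7 in those under 5. KCNJ1, the secretory channel ROMK, went from 69 to 18 UMIs in 54 and 17 nuclei (37.8 to 11.7 CPM, -1.70, -2.53 to -0.93). In connecting nuclei KCNJ1 went from 91.4 to 28.0 CPM, a log2 ratio of -1.70 as well. Within the members the KCNJ1 UMIs lay mostly in nuclei with KIF26B under 5, where they went from 61 to 15 (-1.27, -2.19 to -0.43). The other called gene, KCNB2, rested on 32 and 7 UMIs, of which 12 and 4 came from 1 nucleus each. KCNJ16 and KCNJ15, basolateral channels, were at 238 and 180 CPM (-0.40) and 466 and 405 CPM (-0.20). CALB1 and KLK1 fell as KCNJ1 did: CALB1 from 111 to 30 UMIs (-1.65, -2.28 to -1.05) and KLK1 from 188 to 46 UMIs (-1.79, -2.29 to -1.32). In nuclei with KIF26B under 5 the log2 ratios were -1.21 (-1.92 to -0.55) for CALB1 and -1.43 (-1.98 to -0.91) for KLK1. Connecting nuclei had log2 ratios of -0.75 for CALB1 and -1.40 for KLK1. In proximal nuclei, where these genes were scarce, the log2 ratios were -1.15 for KCNJ1, -1.13 for CALB1 and -1.51 for KLK1. Thick limb nuclei had -0.57, 0.02 and -1.21 in the same order.

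Transcription factors of the lineage were mostly level, with 1 of 20 measured genes called (median 0.07). ELF3, an epithelial ETS factor induced in many epithelia under stress, went from 56 to 108 UMIs (30.7 to 70.0 CPM, 1.19, 0.71 to 1.68). At the entry threshold of 16 ELF3 was at 0.97 (0.40 to 1.56), short of a call, and 2 of 19 genes, LHX1 (-1.16) and TBX3 (-1.07), were called lower. GATA3 changed by 0.16 (-0.07 to 0.38), TFCP2L1, a factor that patterns principal and intercalated cells, by 0.07 (-0.06 to 0.20), and PAX2, a tubule factor, by 0.39 (0.23 to 0.55). Of 16 junction and keratin genes, 1 was called: CLDN8, a claudin of the collecting duct, fell from 75 to 19 UMIs in 57 and 17 nuclei (41.1 to 12.3 CPM, -1.74, -2.55 to -1.0), and it was lower in members with KIF26B too, from 48 to 12 UMIs (-2.24, -3.29 to -1.31). CDH1, the epithelial cadherin, was at 163 and 231 CPM (0.51, 0.28 to 0.73). The list median was 0.08.

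Signals that principal cells send or receive had a median of 0.17 over 13 measured genes, with 3 called higher. WNT7B, a ligand that the collecting duct sends to the surrounding stroma during development, went from 43 to 120 UMIs (23.6 to 77.8 CPM, 1.72, 1.21 to 2.26). Most of these UMIs came from members with KIF26B, where the count went from 36 to 114 (1.42, 0.87 to 2.0). PTGS1, a cyclooxygenase, went from 24 to 51 UMIs (1.33, 0.60 to 2.09), but was at -0.73 with members thinned to 1000 UMIs, and EDNRB, an endothelin receptor, from 17 to 36 UMIs (1.32, 0.45 to 2.25), but was at -0.30 at the entry threshold of 16. Among receptors, PTGER3 for prostaglandin E2 was at 652 and 569 CPM (-0.20), EGFR at 457 and 514 CPM (0.17), ERBB4 at 259 and 447 CPM (0.79) and TGFA, an EGFR ligand, at 55.9 and 100.5 CPM (0.85), none of them called.

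Some heat shock genes, which encode chaperones and their partners, were lower in perfused members. Of 16 measured genes, 5 were called lower and 0 higher, 9 had intervals below 0 and 2 had ratios above 0, against a background of 5.68% called lower, and the median was -0.43 against -0.08 for all genes. HSPH1, a cochaperone of HSP70, went from 553 to 154 UMIs (303 to 99.8 CPM, -1.60, -1.87 to -1.34), in 170 of 457 and 62 of 296 members. HSPD1 and HSPE1, the mitochondrial chaperonin pair, went from 422 to 141 UMIs (-1.34, -1.63 to -1.06) and from 221 to 77 UMIs (-1.28, -1.67 to -0.90). DNAJA1, another cochaperone, went from 386 to 126 UMIs (-1.37, -1.68 to -1.08) and BAG3 from 183 to 44 UMIs (-1.81, -2.32 to -1.33). The abundant HSP90AA1 (744 and 563 CPM), HSPA8 (514 and 375 CPM) and DNAJB1 (1050 and 738 CPM) had log2 ratios of -0.40, -0.45 and -0.51, all with intervals below 0. Outside the list, HSPA6 went from 201 to 18 UMIs (-3.24, -4.02 to -2.54) and the small chaperone HSPB8 from 71 to 2 UMIs. The perfused HSPB8 count lies under the limit of 3 counts, so no exact ratio is given, and its interval lay below -3.00. These genes were lower in both KIF26B ranges: HSPH1 by -2.0 (-2.38 to -1.63) with KIF26B and -1.18 (-1.57 to -0.80) without it, and HSPD1 by -1.60 and -1.12. The list median was -0.62 with KIF26B, -0.74 without it and -0.53 at the entry threshold of 16. In connecting nuclei the list median was -0.23, and HSPH1 and HSPD1 had log2 ratios of -0.21 and 0.34 there. In intercalated nuclei the median was -0.47, and HSPH1 was at -1.21 (-1.82 to -0.64). HSPH1 was at -0.70 in proximal and -0.69 in thick limb nuclei. The differences between these classes were not tested.

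**Figure D4:**
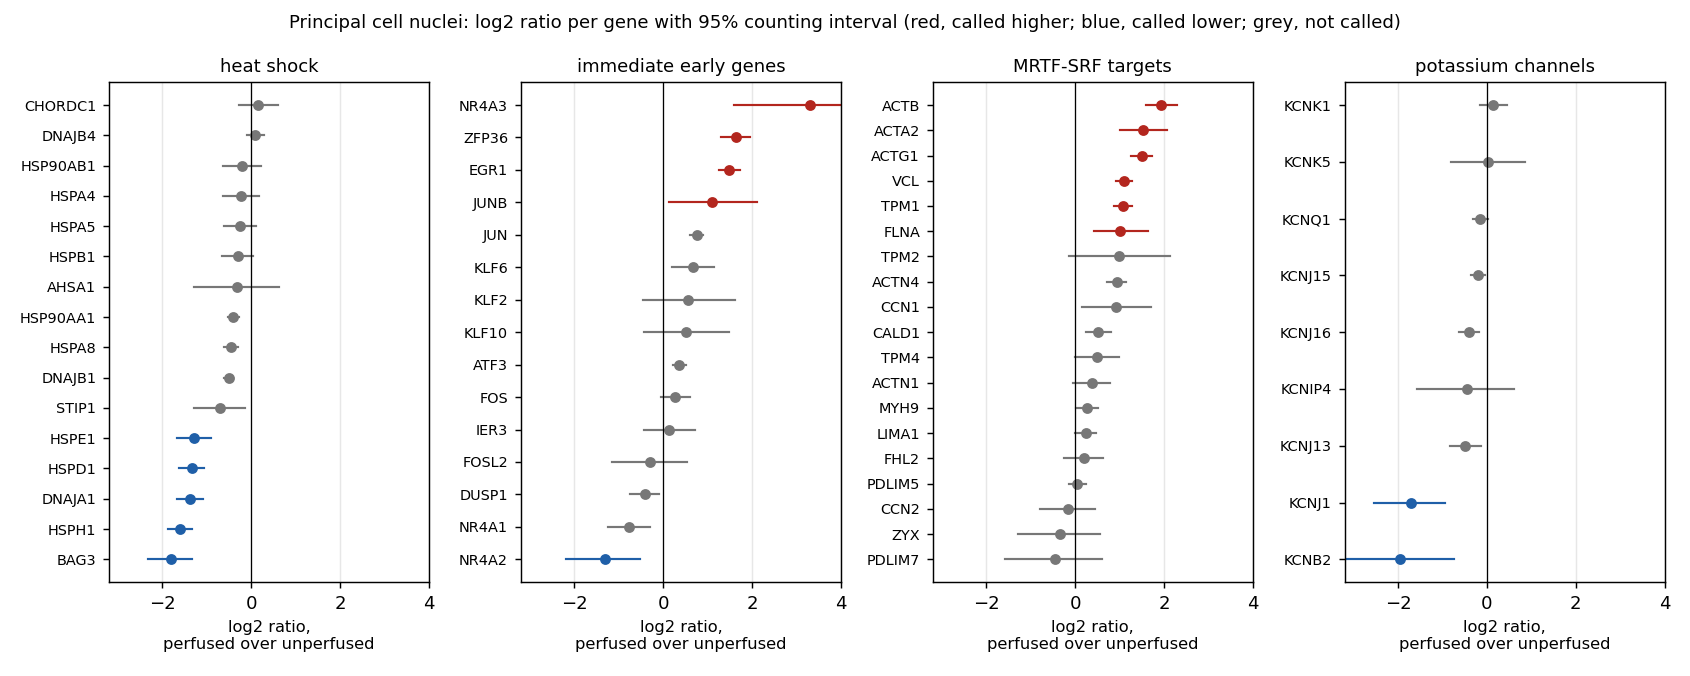
Log2 ratio of perfused over unperfused members, with 95% counting intervals, for each measured gene of 4 lists (red, called higher; blue, called lower; grey, not called; 1 library per condition). In the heat shock list 5 genes are called lower and 0 higher, in the MRTF-SRF list 6 are called higher and 0 lower, and in the potassium channel list 2 are called lower and 0 higher. The intervals of NR4A3 and KCNB2 run past the axis.

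Immediate early genes, transcribed within minutes of many stimuli, did not move as a block. Of 15 measured genes, 4 were called higher and 1 lower, with a median of 0.52. EGR1, a zinc finger factor, went from 208 to 493 UMIs (114 to 320 CPM, 1.49, 1.25 to 1.73), in 113 of 457 and 152 of 296 members. ZFP36, which speeds mRNA decay, went from 114 to 298 UMIs (62.5 to 193 CPM, 1.63, 1.31 to 1.95). The other genes called higher were low: JUNB with 15 and 27 UMIs, and NR4A3 with 3 and 25 UMIs in 3 and 12 nuclei. JUN was at 353 and 594 CPM (0.75, 0.60 to 0.90) and FOS at 86.6 and 104 CPM (0.27, -0.06 to 0.59). NR4A2, a nuclear receptor, was called lower, from 53 to 18 UMIs (-1.32, -2.18 to -0.52), and DUSP1, a MAP kinase phosphatase, was at 109 and 81.7 CPM (-0.42, -0.75 to -0.09). Without the members that had FXYD4 alone, 2 of 13 genes were called higher (EGR1 and ZFP36) and 2 lower (NR4A2, and NR4A1 at -1.01), with a median of 0.35. At the entry threshold of 16 the balance turned, with 2 of 11 called higher and 3 lower and a median of 0.18. NR4A1 (-1.96) and DUSP1 (-1.04) were among those called lower there. EGR1 and ZFP36 had log2 ratios in members with KIF26B of 1.56 (1.26 to 1.88) and 1.77 (1.37 to 2.19), against 0.80 (0.38 to 1.22) and 0.40 (-0.24 to 1.03) without it. Thinned to 1000 UMIs, 10.9% of unperfused and 21.5% of perfused members had an EGR1 UMI (24.7% and 51.4% before thinning), and 0.555% and 0.428% of proximal nuclei did.

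MRTF and SRF are a coactivator and a transcription factor that raise actin and adhesion genes when actin assembles, and the study followed them as sensors of mechanical load. Of 19 measured targets in the members, 6 were called higher and 0 lower, against a background of 2.57% called higher, with a median of 0.53. ACTB and ACTG1, the cytoplasmic actins, went from 95 to 308 UMIs (52.1 to 200 CPM, 1.94, 1.6 to 2.29) and from 204 to 487 UMIs (112 to 316 CPM, 1.5, 1.26 to 1.74). VCL, which links actin to adhesions, went from 418 to 759 UMIs (1.10, 0.93 to 1.28), TPM1, a tropomyosin, from 316 to 561 UMIs (1.07, 0.87 to 1.27) and FLNA, an actin crosslinker, from 39 to 67 UMIs (1.02, 0.43 to 1.63). ACTA2 is also a smooth muscle marker, and 31 of its 110 perfused UMIs came from 1 nucleus. ACTB, ACTG1 and VCL were higher in both KIF26B ranges, ACTB by 2.03 (1.55 to 2.53) and 1.67 (1.17 to 2.19), ACTG1 by 1.41 and 1.33 and VCL by 1.37 and 0.58. CCN1 and CCN2, secreted targets, were at 13.7 and 25.9 CPM (0.92, 0.16 to 1.70) and 29.0 and 25.9 CPM (-0.16, -0.79 to 0.46). One setting was meant to leave out members holding a UMI of an immune, endothelial, stromal or podocyte marker, and kept 253 and 146. ACTA2 is both a target of this list and a stromal marker, so the setting may pick members by a gene of the list. ACTA2 still had a log2 ratio there (-0.39), so its own UMIs were not all removed. In that setting, given as a description only, the list median was 0.12, with 4 of 15 genes called higher and 1 lower. At the entry threshold of 16 it was 0.29, with 3 of 15 called higher (ACTB, ACTG1 and VCL) and 2 lower (CALD1 and FHL2). Leaving out the members that had FXYD4 alone it was 0.46, with 6 of 17 called higher, FLNA (0.93) no longer being called and CCN1 (1.22) being called. Other settings raised it, to 0.91 with 8 of 17 called higher without doublets, 0.78 with 13 of 27 at an entry threshold of 4, and 0.91 with 5 of 12 in members thinned to 1000 UMIs. The list median was 0.65 in connecting nuclei, where ACTB was at 63.9 and 123 CPM (0.94, 0.52 to 1.38). In intercalated nuclei it was -0.10, and ACTB was at 42.3 and 26.7 CPM there.

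YAP targets, a neighbouring set of load-responsive genes, had a median of 0.38 over 15 measured genes with 1 called, NUAK2. This kinase went from 285 to 1050 UMIs (156 to 681 CPM, 2.12, 1.93 to 2.32), in 133 of 457 and 152 of 296 members, 61 of the perfused UMIs lying in 1 nucleus. With KIF26B it went from 96 to 821 UMIs (2.85, 2.55 to 3.17), and without KIF26B from 189 to 229 UMIs (1.03, 0.75 to 1.32). In connecting nuclei NUAK2 was at 181 and 303 CPM and in proximal nuclei at 52.7 and 107 CPM. Of proximal nuclei, 17.3% and 31.3% held a NUAK2 UMI. Perfused members were read more deeply, and these counts of nuclei with NUAK2 were not matched for depth. WWC1, a Hippo pathway regulator, was at 919 and 1800 CPM (0.97, 0.88 to 1.06), just short of a call. Without the members that had FXYD4 alone, 4 of 15 YAP targets were called, NUAK2 with WWC1, CCN1 (1.22) and F3 (1.01), and the median was 0.55. The YAP median was 0.64 with 3 of 13 called in nuclei with KIF26B at 5 or more, and 0.10 with 2 of 12 in those under 5. Of 14 genes that sense or relay load, 0 were called higher and 1 lower: PIEZO1, a stretch-gated channel, with 32 and 11 UMIs (-1.30, -2.44 to -0.27). TRPV4, an osmotically and mechanically gated channel, was at 219 and 333 CPM (0.60, 0.41 to 0.80), MRTFA at 294 and 500 CPM (0.77, 0.60 to 0.93) and TEAD1, the partner of YAP, at 350 and 555 CPM (0.67, 0.52 to 0.82), while YAP1 was at 431 and 443 CPM (0.04, -0.11 to 0.19). The cilium and polycystic kidney genes had a median of 0.25 over 16, with 0 called.

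Other stress programmes gave single genes. CRYAB, a small chaperone abundant in medullary and collecting duct cells, was called higher, from 499 to 944 UMIs (274 to 612 CPM, 1.16, 1.0 to 1.32), against the direction of the heat shock list. With KIF26B it was at 462 and 919 CPM (0.99, 0.81 to 1.17) and without KIF26B at 132 and 149 CPM (0.18, -0.21 to 0.57). At the entry threshold of 16 CRYAB was at 0.95 (0.77 to 1.13), short of a call. MMP7, a protease linked to tubule injury, had 22 UMIs in unperfused and 0 in perfused members, a log2 ratio of -2.63 or lower against a limit of 3 counts. Of the 9 measured injury genes these 2 were called (median 0.31), and without the members that had FXYD4 alone 1 of 8 was called higher and 2 lower (median 0.13). At the entry threshold of 16, 0 of 7 were called higher and 1 lower (median -0.16). In the osmotic stress list NFAT5, the master factor, was at 683 and 1110 CPM (0.70, 0.59 to 0.81), SLC38A2, an amino acid carrier, fell from 192 to 67 UMIs (-1.28, -1.70 to -0.87), and AKR1B1, which makes sorbitol, was at 127 and 152 CPM (0.26, -0.01 to 0.53), with 1 of 6 called. Of 14 hypoxia targets 1 was called higher and 1 lower (median -0.27), of 8 NF-kB targets 1 higher (median 0.03) and of 12 unfolded protein response genes 2 lower (median -0.16). Without the members that had FXYD4 alone, 1 of 8 NF-kB targets was called higher and 1 lower (median 0.15), and 3 of 12 unfolded protein response genes lower.

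Mitochondrial and ribosomal transcripts took different directions in different sets of members. The 11 measured mitochondrially encoded genes had a median of 0.24 with 2 called lower, and the 64 ribosomal protein genes a median of 0.25 with 0 called. Without the members that had FXYD4 alone the medians were -0.59 and -0.30, and at the entry threshold of 16 they were -1.41 and -0.68. With the entry threshold at 4 they were 1.08 and 0.68, with 6 of 11 and 9 of 64 called higher, and with members thinned to 1000 UMIs they were 1.28 and 1.06, with 6 of 10 and 31 of 56 called higher. COX1 was at -0.56 (-0.69 to -0.43) in all members and at -1.28 (-1.44 to -1.12) without those that had FXYD4 alone. In the perfused library, nuclei with FXYD4 alone gave 375 of the COX3 UMIs and the remaining 253 members gave 583. With KIF26B at 5 or more the medians were -1.32 and -0.61, and with KIF26B under 5 they were 1.65 and 1.09. The direction of these transcripts thus differed between the sets of members, and that difference was not tested.

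The largest differences among called genes with at least 50 UMIs in the richer library included genes outside these lists. Higher in perfused members were C1orf141 (23 and 109 UMIs, 2.49), TOX, a nuclear factor (14 and 66 UMIs, 2.48), KCND3, a potassium channel (44 and 191 UMIs, 2.36), SPATA22 (33 and 143 UMIs, 2.36), CACNA1E, a calcium channel (55 and 209 UMIs, 2.17), and COL8A1, a short-chain collagen (138 and 480 UMIs, 2.04). C1orf141 and CACNA1E lay in members with KIF26B, which held 107 of the 109 and 202 of the 209 perfused UMIs, and COL8A1 likewise with 468 of 480. Within those members the log2 ratios were 2.69 (1.88 to 3.61), 2.13 (1.63 to 2.66) and 1.71 (1.42 to 2.01). CHL1, RUNX1, HS3ST5, OSR1, INPP5D, CYP4B1 and ABCC1 completed the 15, with ratios of 1.80 to 2.30, and 15 of the 50 perfused CHL1 UMIs, 21 of the 81 of RUNX1 and 17 of the 63 of OSR1 came from 1 nucleus each. Of the 14 unperfused TOX UMIs, 9 came from 1 nucleus. Lower were HSPB8, HSPA6, BAG3, HSPH1, KCNJ1, CALB1, KLK1 and CLDN8, all given above. The others were ND6 of the mitochondrial genome (84 and 8 UMIs, -3.15), NFE2L3, a stress factor (90 and 14 UMIs, -2.44), GTSF1 (134 and 21 UMIs, -2.43), KRR1 (78 and 17 UMIs, -1.96), WNT2B, a Wnt ligand (53 and 12 UMIs, -1.90), PTPRQ (51 and 14 UMIs, -1.62) and DAP3 (68 and 19 UMIs, -1.60). NFE2L3 and GTSF1 were spread thinly, at no more than 4 UMIs in any nucleus. Some of these genes moved alike in other classes. SPATA22 had log2 ratios of 2.56 in connecting, 2.87 in intercalated and 2.02 in proximal nuclei, and GTSF1 of -1.75, -2.27 and -2.16.

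KIF26B and UNC5D were themselves called higher in perfused members. KIF26B went from 2184 to 4623 UMIs (1.32, 1.25 to 1.40) and UNC5D from 736 to 1845 UMIs (1.57, 1.44 to 1.69). In the nuclei with KIF26B at 5 or more, its median was 21.6 per 10000 in 180 unperfused and 44.0 per 10000 in 163 perfused nuclei, and the quartiles were 13 to 36.2 and 21.7 to 72.4. These nuclei were picked by KIF26B itself, so their share and their level are not separate findings. UNC5D in those nuclei was at 865 and 1980 CPM, and in the remaining ones at 55.7 and 14.6 CPM. Across members, the Spearman correlation of KIF26B and UNC5D per 10000 UMIs was 0.47 in 457 unperfused and 0.75 in 296 perfused nuclei, given as a description since nuclei of 1 library share its depth and free RNA. KIF26B in connecting nuclei was at 24.3 and 63.6 CPM and in intercalated nuclei at 18.0 and 18.4 CPM.

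**Figure D5:**
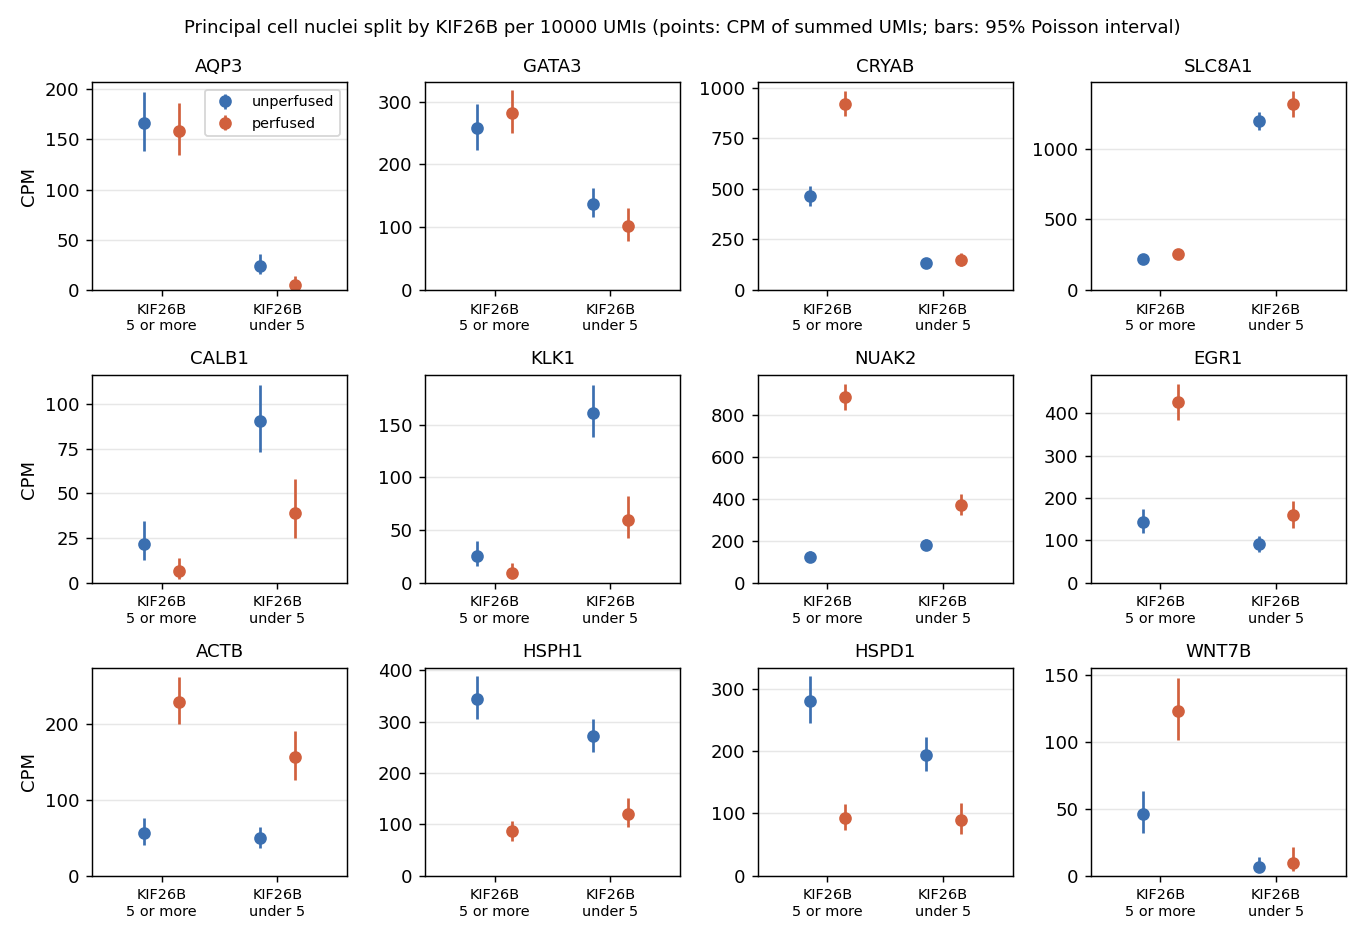
Level in CPM, with 95% Poisson intervals, of 12 genes in members with KIF26B at 5 or more per 10000 UMIs (180 unperfused, blue; 163 perfused, orange) and under 5 (277 and 133). AQP3, GATA3 and CRYAB are higher with KIF26B and SLC8A1, CALB1 and KLK1 without it, HSPH1 and HSPD1 are lower and ACTB and NUAK2 higher in perfused nuclei of both ranges, and WNT7B differs between libraries mainly with KIF26B.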

How the data were processed

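Nuclei of pig kidney cortex were profiled in 1 unperfused and 1 perfused library. The authors aligned the reads with Cell Ranger 5.0.1 (version per the submitters' notes) to a pig reference built from Ensembl, introns included, and deposited raw UMI counts per gene and barcode, taken here as being from before their removal of free RNA. Members and lists were chosen with earlier results of these data known. The 31908 genes were matched by the deposited symbols, with 822 filled in from a table of identifiers. Barcodes with 500 to 6000 genes were kept, with 14 barcodes shared by both libraries. Doublets called by Scrublet (scanpy 1.11.5) stayed in: 7.0% of unperfused and 5.74% of perfused members. UMIs were summed over members, and ratios and intervals were computed with scipy 1.17.1 and tested on simulated data. The simulation drew Poisson counts, as the intervals assume, so it checks the code only. It left out UMIs of a gene that gather in 1 nucleus. A comparison with 1 library per condition allows no p-value. Named genes were the rule and marker genes, listed genes, the 15 largest called ratios each way with at least 50 UMIs, the 15 leading over other nuclei and the 8 each way against neighbouring classes. Alternatives included edgeR 4.0.16 (TMM) and DESeq2 1.42.0 scaling, other thresholds, thinning and removal of free RNA, estimated at 8.09% and 8.0% of members' UMIs. That estimate set LRP2, CUBN and UMOD in members against all kept nuclei. The rule bounds LRP2 plus CUBN in members, so it partly fixes the estimate. Levels within KIF26B ranges and without FXYD4-only members were added after seeing the data. Genome positions and sequences were not used here. Some genes of the lists are not reported here.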

Additional observations from a re-analysis of the deposited data

Results flagged for a closer look

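Some genes had intervals on opposite sides of 0 in principal nuclei and in a neighbouring class. The difference between classes was not tested in any of these cases, and each class comes from the same pair of libraries. The log2 ratio of ACTB, perfused over unperfused, was 1.94 in principal and -0.66 in intercalated nuclei. COX3 was at 0.47 and -0.76, and its rise in principal nuclei was not seen without the members that had FXYD4 alone (-0.17). Against connecting nuclei, KCNB2 was at -1.95 in principal and 1.23 in connecting nuclei, on 32 and 7 UMIs in the former. AQP2 was at 0.13 and -0.72 and FXYD4 at 0.61 and -1.56 in the same order, and both are genes of the membership rule. COX1 was at -0.56 and 0.64 (-1.28 in principal nuclei without the members that had FXYD4 alone), and HES1 at -0.29 and 0.48. SLC26A4, the pendrin of base-secreting intercalated cells, was at 1.24 and -3.75, and 64 of its 66 perfused UMIs in principal nuclei came from 1 nucleus.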

How the results depend on the processing

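No paired analysis was possible because each condition had 1 library. Levels, calls and intervals therefore carry counting error only, and animal, kidney, library and perfusion cannot be told apart. Weakly expressed genes with few UMIs are the least certain. Of the values that answer a comparison, 103 recomputed ones stayed near the reported value and 29 moved. Shares, folds and single genes stayed when inside a counting interval, and counts of called genes when within a fixed fold range. A list median stayed when it lay between the medians of its genes' lower and upper limits. That range is wide and is no interval of the median. The immediate early median of 0.18 and the MRTF-SRF median of 0.12 thus counted as stayed. Of the values of single genes and lists, 1428 stayed, 198 moved and 20 called ones reversed. A minimum of 5 or of 100 UMIs cannot change a single gene's ratio. All 86 single genes therefore counted as stayed under each of these settings, which raises that tally.

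The share of principal cell nuclei was lower in the perfused library under each setting tried. It was 9.64% and 7.01% (unperfused and perfused) with an entry threshold of 4, 3.77% and 2.96% with one of 16, 5.34% and 4.28% with barcodes thinned to 1500 UMIs, and 8.30% and 6.40% without upper bounds on other genes. The perfused share was 4.34% with at least 2 UMIs of the entry genes and 4.27% without members that had FXYD4 alone. Genes called higher numbered 392 and lower 802 with a minimum of 5 UMIs, and 80 each way with a minimum of 100, fewer genes being tested. With members thinned to 1000 UMIs 206 were called higher and 228 lower of 4667 tested, so the excess of lower calls was far smaller, and with KIF26B under 5 per 10000 there were 202 and 368 of 7541. TMM scaling gave 299 higher and 477 lower, and DESeq2 size factors 306 and 453.

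The log2 fold of KIF26B over all other nuclei was 5.53 and 6.07 without doublets and 4.81 and 5.39 after thinning, and 5.36 in the perfused library at the entry threshold of 16. For UNC5D it was 4.52 and 5.23 at the threshold of 16, and in the perfused library 5.51 without doublets and 5.49 after thinning. GATA3 was at 2.77 in the unperfused library at the threshold of 16, and at 2.74 and 2.68 after thinning. With KIF26B under 5 the median of YAP targets was 0.10 and that of heat shock genes -0.74.

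Reversed log2 ratios came mostly with few UMIs, and the cause was not tested. With KIF26B under 5 they were C1orf141 at -1.41, CACNA1E at -0.44, ABCC1 at -1.05, UNC5D at -1.93, JUNB at -1.24, ND5 at 0.16 and SLC26A4 at -0.98 or lower, with 0 perfused UMIs taken as 3 counts. With an entry threshold of 16 they were EDNRB at -0.30, ACTA2 at -0.74, DCN at -1.02, PTPRC at -1.36, COL1A1 at -0.73 and COL1A2 at -0.30. Without members holding markers of other cell types, ACTA2 was at -0.39, DCN at -0.36 and COL1A1 at -0.71. These genes still had ratios in that setting, so it did not remove all of their own UMIs. After thinning, PTGS1 was at -0.73 and CSF1 at -0.057. SLC26A4 was at -4.85 without doublets and -3.40 without its richest nucleus.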

Other observations

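A few barcodes outside the gene limits also met the rule: 7 unperfused and 10 perfused barcodes with under 500 genes, and 1 in each library with over 6000. In members without an AQP2 UMI (133 unperfused and 96 perfused), AQP3 was at 22.3 and 9.81 CPM, against 103 and 119 CPM in members with one, while NR3C2 was at 2160 and 2061 CPM against 2199 and 2776 CPM and SCNN1B at 464 and 487 CPM against 531 and 590 CPM. AQP2 is a gene of the rule, and members without it include all those that had FXYD4 alone. They were shallower, with medians of 2828 and 2070 UMIs against 3906 and 5928.5. In the perfused library they held PTPRC at 144 against 37.2 CPM. The markers of the distal convoluted tubule summed to 709 CPM in unperfused and 812 CPM in perfused members, and the podocyte markers to 103 and 79.1 CPM. Of the 5 measured cycling genes in the files, 0 reached 20 UMIs in the members.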
